A study of Gallus gallus and Dromaius novaehollandiae with 40 samples.

Results

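CYP24A1 encodes the 24-hydroxylase, the mitochondrial cytochrome P450 enzyme that starts the breakdown of vitamin D. It was followed here as 1 gene of the 12338 in the count tables of early chick (Gallus gallus) and emu embryos (Dromaius novaehollandiae), in every early library. The gene was chosen by its measured difference between tissues and species in these same libraries, so its own levels are described without a test. It passed the filter on low counts in both species.

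The series compares limb-forming tissue of the chick with that of the emu, a flightless bird with small wings. The early libraries hold tissue from the level of the forelimb; the labels name species, tissue and stage, and no strain, genotype or treatment. There are 3 chick libraries each of lateral plate mesoderm (named 30, 31 and 32), somatopleure (15, 60 and 63) and splanchnopleure (50, 61 and 64). The emu has 3 of lateral plate (1, 23 and 8), 3 of somatopleure (13, 53 and 5) and 2 of splanchnopleure (6 and one named pool). The lateral plate is the sheet of mesoderm that later splits into an outer layer, the somatopleure, from which the limb bud grows, and an inner layer, the splanchnopleure, on the gut side. Lateral plate is labelled as Hamburger and Hamilton (HH) stage 10 and both layers as HH13. The exceptions are emu lateral plate 1, labelled HH13, and emu somatopleure 13, labelled HH10. In the chick a comparison with the lateral plate is therefore also one between stages, and tissue and stage cannot be told apart there; in the emu they are apart in these 2 libraries alone. The labels do not give the number of embryos behind a library, so the spread between libraries may be technical.

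Vitamin D is made active by successive hydroxylations, first by CYP2R1 or CYP27A1 and then by CYP27B1, and the active hormone acts through the vitamin D receptor VDR paired with a retinoid X receptor. CYP24A1 inactivates both the hormone and its precursor. The CYP24A1 gene is itself among the genes most strongly induced by the receptor in kidney and gut, which makes it a familiar readout of vitamin D action in adult tissue.

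Total counts ran from 5061393 to 8348865 in the chick libraries and from 7350786 to 8601471 in the emu libraries. Replicates of a tissue differed beyond sampling noise in every pair (chi-square over degrees of freedom of at least 3.95). The labelled layers were set beside marker genes. These lists were chosen with earlier results of these data known, so the values describe the layers and are no independent check of the labels. The summed level of 8 limb mesenchyme markers ranged from 973 to 1253 CPM (counts brought to 1 common library size by TMM) in the chick somatopleure and from 55.1 to 151 CPM in its splanchnopleure. In the emu the ranges were 191 to 468 and 32.3 to 139 CPM. TBX5, a transcription factor of the forelimb field, was at 132 ± 8.62 CPM (SD, n = 3) in the chick somatopleure and at 31.5 ± 39.3 (n = 3) in that of the emu. By edgeR's test (adjusted p under 0.05), 8 of 8 limb mesenchyme markers were higher in the chick somatopleure than in the splanchnopleure, against 7.34% of all genes. In the emu 1 of 8 was (3 at an unadjusted p under 0.05), against 5.05% of all genes. The markers of the outer layer were thus present in the somatopleure of both species, but unevenly in the emu, where they set the layers apart less clearly.

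CYP24A1 was low in all chick libraries and spanned a far wider range in the emu, where it was highest in the splanchnopleure and below 1 CPM in the somatopleure. In the chick lateral plate its level was 5.08 CPM in library 30, 4.15 in 31 and 6.81 in 32, from 42, 28 and 34 counts. In the chick somatopleure it was 9.48 CPM in library 15, 7.64 in 60 and 3.94 in 63, from 76, 60 and 32 counts. The lowest of these, library 63, lay below all 3 lateral plate libraries, so both tissues overlapped. In the chick splanchnopleure the level was 2.25 CPM in library 50, 3.37 in 61 and 2.13 in 64, from 15, 22 and 18 counts. Every chick splanchnopleure library lay below every library of both other tissues.

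In the emu lateral plate the level was 4.0 CPM in library 1, 20.9 in 23 and 12.2 in 8, from 35, 170 and 100 counts. Library 1, the one labelled HH13, was the lowest of the 3. In the emu somatopleure the gene stood at 0.251 CPM in library 13, 0.546 in 53 and 0.789 in 5, from only 2, 4 and 6 counts. The exact 95% Poisson intervals of these libraries, which cover counting error only, ran from 0.0304 to 0.907, from 0.149 to 1.40 and from 0.289 to 1.72 CPM and overlapped each other. In the emu splanchnopleure it reached 87.5 CPM in library 6 and 76.4 in the pool library, from 679 and 591 counts. No 2 emu tissues overlapped. Among emu libraries labelled HH10, somatopleure 13 (0.251 CPM) lay below lateral plate 8 and 23 (12.2 and 20.9). Among those labelled HH13, lateral plate 1 (4.0 CPM) lay above somatopleure 53 and 5 (0.546 and 0.789) and below splanchnopleure pool and 6 (76.4 and 87.5). The full order of the emu tissues was thus also seen within HH13, through lateral plate 1 alone. No emu splanchnopleure library is labelled HH10. Within HH10 only lateral plate and somatopleure could be ordered, the latter by library 13 alone.

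**Figure D1:**
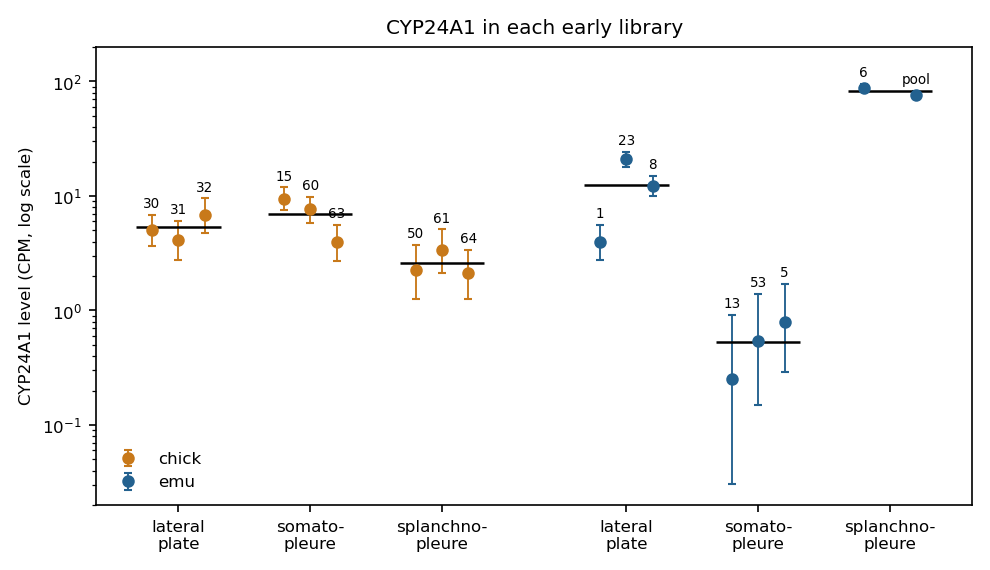
CYP24A1 level in each early library in CPM (log scale), with the library's name above each point, exact 95% Poisson intervals as bars and the group mean as a black line. The chick libraries lie between 2.13 and 9.48 CPM, while the emu runs from 0.251 CPM in somatopleure 13 to 87.5 CPM in splanchnopleure 6.

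The group means put the tissues in a different order in each species. In the chick the order was somatopleure at 7.02 ± 2.82 CPM (SD, n = 3), lateral plate at 5.34 ± 1.35 (n = 3) and splanchnopleure at 2.58 ± 0.682 (n = 3). In the emu it was splanchnopleure at 82.0 ± 7.82 (n = 2), lateral plate at 12.4 ± 8.46 (n = 3) and somatopleure at 0.529 ± 0.269 (n = 3). The lateral plate was thus the middle tissue in both birds, with the layers exchanged around it. The neighbours in these orders that did not differ beyond their spread were the chick somatopleure and lateral plate.

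Within a tissue, the spread between libraries was smallest in the emu splanchnopleure, which has only 2 libraries, and largest in the emu lateral plate. The highest library exceeded the lowest by 1.14-fold in the emu splanchnopleure and by 1.58-fold in the chick splanchnopleure. The ratio was 1.64 in the chick lateral plate and 2.41 in the chick somatopleure. It was 3.14 in the emu somatopleure, where counts were in single digits, and 5.23 in the emu lateral plate. The counting intervals of the 3 emu somatopleure libraries overlapped, whereas in the emu lateral plate the interval of library 1 (2.78 to 5.56 CPM) lay below those of libraries 23 (17.9 to 24.3) and 8 (9.96 to 14.9).

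On the log2 scale (log2 CPM with a prior count of 2), the chick somatopleure exceeded the chick splanchnopleure by 1.29, against a within-tissue SD of 0.50, or 2.72-fold by mean CPM. The libraries did not overlap, as for 15.5% of the 10071 chick genes tested in that direction. The fitted log2 fold change, 1.44, was the 138th highest of these genes. From lateral plate to somatopleure the difference was 0.32, smaller than the SD of 0.51, and the fitted value was the 1289th highest. From lateral plate to splanchnopleure the difference was -0.97 (SD 0.33), 2.07-fold lower, with no overlap, as for 19.5% of genes. The fitted value there was the 266th lowest. The chick layers thus differed in CYP24A1 by a moderate amount, carried by the low splanchnopleure.

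In the emu the somatopleure was 6.78 lower than the splanchnopleure (log2 difference -6.78, within-tissue SD 0.39), a ratio of 155 by mean CPM. The fitted log2 fold change, -7.24, was the eighth most negative of 10640 genes tested, and 21.8% of genes had no overlap in that direction. From lateral plate to somatopleure the difference was -3.80 (SD 0.92), 23.4-fold lower, and the fitted value was the third most negative of all genes; 8.49% of genes had no overlap in that direction. From lateral plate to splanchnopleure it was 2.98 (SD 0.84), 6.62-fold higher, with 28.2% of genes not overlapping in that direction. The fitted value there was the 187th highest. The emu gene therefore departed from the lateral plate in opposite directions in its layers. The departure was larger in the somatopleure on the log2 scale, but not without lateral plate 23 (-3.28 in the somatopleure and 3.49 in the splanchnopleure).

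Leaving out both emu libraries with a stage label unlike the rest of their tissue kept these directions. Without lateral plate 1 and somatopleure 13 the log2 difference was -6.48 between the layers, -4.15 between somatopleure and lateral plate and 2.33 between splanchnopleure and lateral plate. Across the fits that left out a single library, the emu layer difference ran from -7.02 to -6.49 and the chick layer difference from 1.05 to 1.65. With a prior count of 0.5 in place of 2 the emu layer difference was -7.23; 12 counts in all stand behind the emu somatopleure.

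Set side by side, the species differed most in the direction between layers. The chick layer difference minus the emu layer difference was 8.07 on the log2 scale, and by the fitted value, 8.68, the gene had the second highest such difference of 9736 genes fitted in both species. All 3 chick somatopleure libraries stood above all 3 chick splanchnopleure libraries, and all 3 emu somatopleure libraries below both emu splanchnopleure libraries. In all, 108 genes (1.11% of those fitted in both species) had layers apart in this combination, 656 genes (6.74%) were higher in the somatopleure of both species and 800 (8.22%) in the splanchnopleure of both. These values chose the gene and carry no test. The counting intervals of the closest chick libraries of the layers, somatopleure 63 (2.69 to 5.56 CPM) and splanchnopleure 61 (2.11 to 5.10), overlapped.

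Levels between species also carry the length and annotation of each gene model, and are given without a test. Mean CPM in the splanchnopleure was 31.7-fold higher in the emu than in the chick. In the somatopleure it was 13.3-fold higher in the chick, and in the lateral plate 2.32-fold higher in the emu. The ratios thus pointed in opposite directions in the layers. In whole pieces of tissue such as these, more cells that express a gene and more RNA per cell cannot be told apart.

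The other genes of vitamin D metabolism and action were read from the same fits over all genes. Of 73 listed genes in 8 groups, 54 are in the tables, 41 passed the count filter in the chick and 46 in the emu. CYP27B1, LRP2 and RXRB are among those not analysed here. A gene is called, and rose or fell, where edgeR's quasi-likelihood test with Benjamini-Hochberg adjustment over all genes tested gave an adjusted p under 0.05.

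Pathway genes were called between the chick layers about as often as other genes. In the chick somatopleure against the splanchnopleure, 1 of 41 pathway genes rose and 7 fell (19.5%, against 19.1% of all genes called), and the median log2 fold change was -0.07, close to that of all genes (-0.00062). Of all chick genes, 7.34% were called higher and 11.8% lower in this comparison. The gene that rose was BAZ1B, a chromatin factor that binds the receptor (log2 fold change 0.36, SE 0.07, adjusted p = 0.0033). In the emu somatopleure against the splanchnopleure, 2 of 46 rose and 7 fell (19.6%, against 13.4% of all genes), with a median of 0.0062 against 0.04 for all genes. Of all emu genes, 5.05% were called higher and 8.34% lower. GC, ITGB3 and SPP1 fell in the somatopleure of both species, where CYP24A1 was on opposite sides. Of these only SPP1 in the chick and ITGB3 in the emu kept the call with each library left out. By lack of overlap, a measure other than the call, 8.22% of all genes were higher in the splanchnopleure of both species. The emu count was 4 without somatopleure 13, 6 without somatopleure 53 and 10 without somatopleure 5. The number of all genes called between the emu layers moved as well with a library left out.

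**Figure D2:**
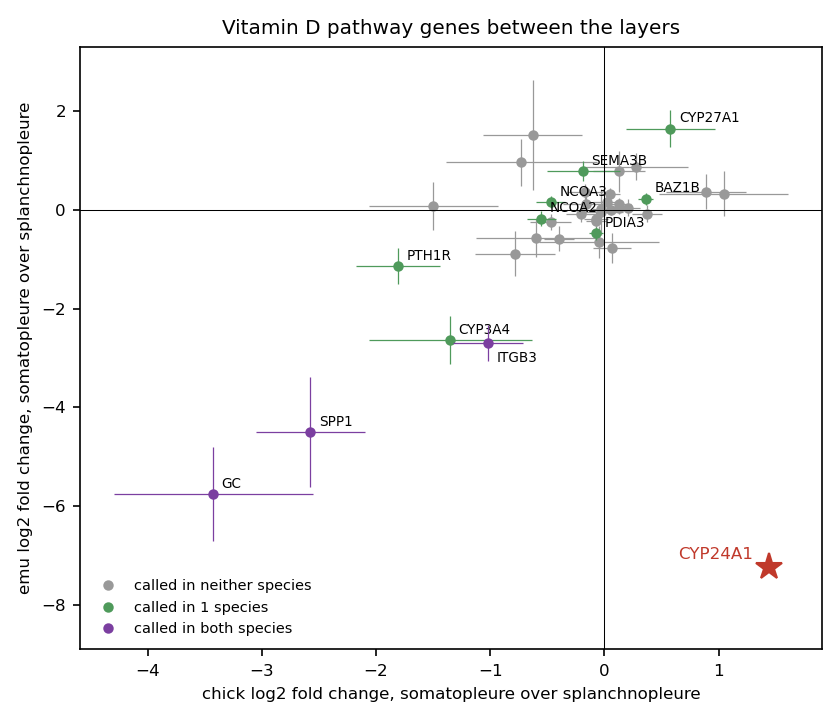
Log2 fold change from splanchnopleure to somatopleure in the chick (horizontal axis) and the emu (vertical axis) for the vitamin D pathway genes fitted in both species, with SE bars; RUNX2, which had no count in the chick somatopleure, is left out. CYP24A1 (star, described without a test) lies at 1.44 and -7.24, in the lower right corner, while GC and SPP1 lie at the lower left.

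Against the lateral plate, 4 of 41 chick pathway genes fell in the somatopleure (9.76%, against 9.8% of all genes) and none rose. In the chick splanchnopleure 2 rose and 2 fell (9.76%, against 16.9% of all genes). With any 1 of the 6 libraries of these tissues left out, 0 or 1 pathway gene was called. All genes called then numbered 816 to 1481, against 1697 with every library. In the emu splanchnopleure 8 of 46 rose and 4 fell (26.1%, against 20.6% of all genes). That emu count fell with a library left out: it was 5 without lateral plate 1, 7 without lateral plate 23 and 8 without lateral plate 8. The number of all genes called in this comparison fell as well, so the fall was not limited to pathway genes. In the emu somatopleure against the lateral plate edgeR called none of 46 pathway genes and none of all genes (0%), with 6 pathway genes and 1107 genes at an unadjusted p under 0.05. DESeq2 called 3 pathway genes and 140 genes in all. CYP24A1, 23.4-fold lower by mean CPM in this same comparison, is among all the genes fitted, of which edgeR called none.

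Tested directly as an interaction over both species, 3 of 39 pathway genes differed between species in the change from lateral plate to splanchnopleure (7.69%, against 9.57% of all genes). For the layers 1 of 39 did (2.56%, against 5.46%). For the change from lateral plate to somatopleure edgeR called 0 of 39 (against 2.96%), with 11 at an unadjusted p under 0.05 and 2 by DESeq2. The call between the layers was NCOA3, a receptor coactivator, with a species difference of -0.64 (SE 0.18, adjusted p = 0.0483), so the sign was opposite to that of CYP24A1. It was lost when any of 10 of the 11 layer libraries was left out, the exception being chick splanchnopleure 50 (adjusted p up to 0.143). The count for the change from lateral plate to splanchnopleure was 0 without emu splanchnopleure 6.

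**Figure D3:**
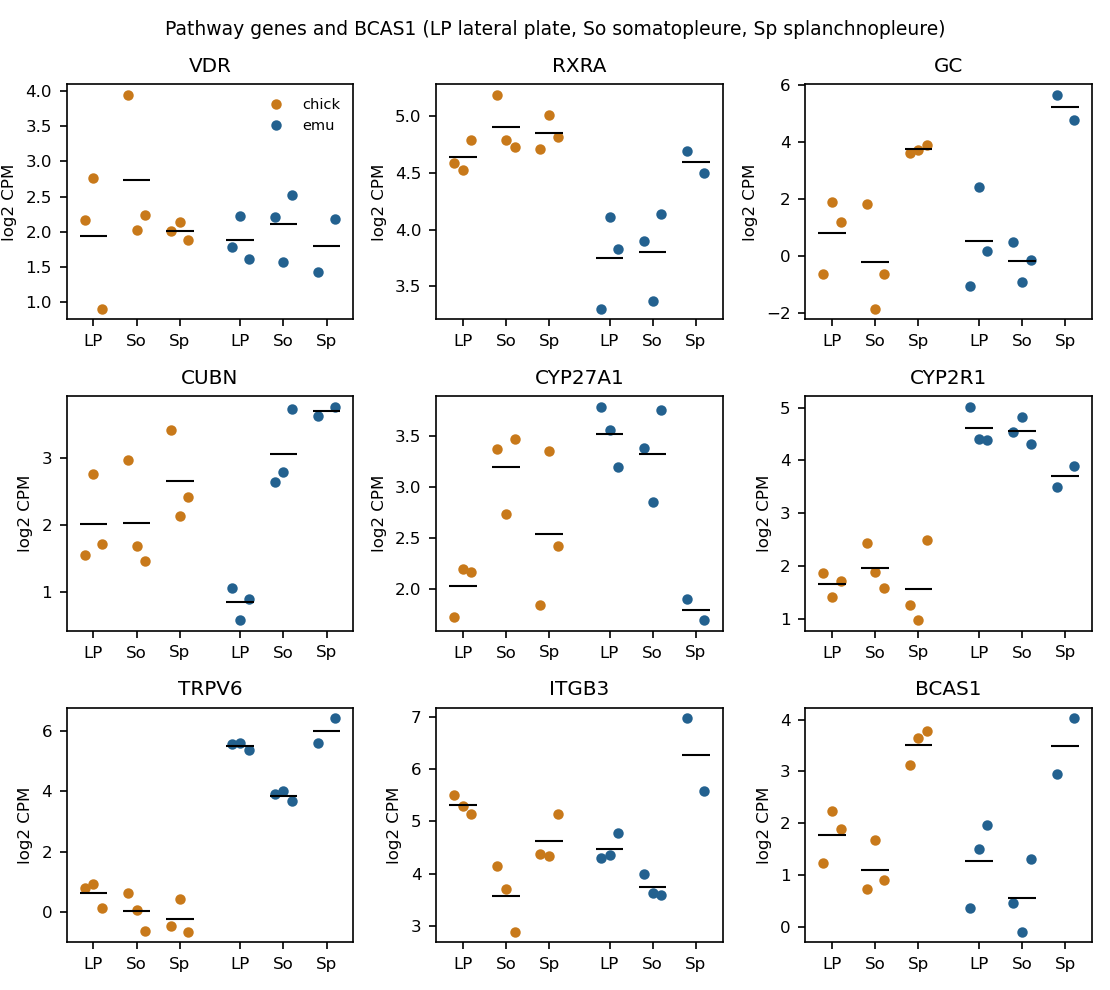
Log2 CPM of 8 vitamin D pathway genes and of BCAS1, a gene close to CYP24A1, in each library, with the group mean as a black line; the vertical scale differs between panels. VDR groups overlap in both species, GC is highest in the splanchnopleure of both, and CYP27A1 is lowest in the emu splanchnopleure, where CYP24A1 is highest.

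Among the genes that make and activate vitamin D, CYP27A1 was lowest in the emu splanchnopleure, where CYP24A1 was highest. The CYP27A1 levels of emu lateral plate and somatopleure overlapped, whereas those of CYP24A1 did not. CYP27A1, a mitochondrial 25-hydroxylase, was at 13.6, 11.6 and 8.94 CPM in emu lateral plate 1, 23 and 8, at 10.2, 6.96 and 13.3 in somatopleure 13, 53 and 5, and at 3.48 and 2.97 in splanchnopleure 6 and pool. Both splanchnopleure libraries lay below all other emu libraries. It fell by 1.81 in the splanchnopleure against the lateral plate (SE 0.37, adjusted p = 0.0125; 0.0796 without splanchnopleure 6 and 0.0578 without pool). It rose in the somatopleure against the splanchnopleure (log2 fold change 1.65, SE 0.37, adjusted p = 0.0236). That second call was lost without somatopleure 13 (0.0556), splanchnopleure 6 (0.134) or pool (0.0905).

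In the chick CYP27A1 was at 3.84 ± 0.710 CPM in the lateral plate, 9.10 ± 2.40 in the somatopleure and 6.11 ± 3.44 in the splanchnopleure (SD, n = 3 each), and no chick comparison was called (adjusted p 0.079 to 0.333). The species difference from lateral plate to splanchnopleure was 2.49 (SE 0.58, adjusted p = 0.0168; 0.0694 without emu splanchnopleure 6). CYP2R1, the main microsomal 25-hydroxylase, fell by 0.94 in the emu splanchnopleure against the lateral plate (24.6 ± 6.55 to 12.8 ± 2.50 CPM; SE 0.28, adjusted p = 0.0419), a call lost with any 1 of those 5 libraries left out (0.0575 to 0.246). DHCR7, which removes the skin precursor of vitamin D by turning it into cholesterol, was called in 0 of 6 comparisons within species (adjusted p 0.616 to 0.974).

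CYP3A4 is a broad drug-metabolizing P450 that can also hydroxylate vitamin D, and was the other breakdown gene measured. Its row is uncertain, since a near copy, CYP3A7, is also in the tables and shared reads may be split. In the emu it was at 1.60, 3.45 and 4.16 CPM in lateral plate 1, 23 and 8, at 2.51, 2.59 and 1.18 in somatopleure 13, 53 and 5, and at 10.6 and 15.6 in splanchnopleure 6 and pool. As for CYP24A1, both splanchnopleure libraries were the highest of the 8. Of all emu genes, 28.2% had the splanchnopleure wholly above the lateral plate and 21.8% wholly above the somatopleure. It fell by 2.64 in the somatopleure against the splanchnopleure (SE 0.49, adjusted p = 0.0123), a call kept with each library left out. In the chick it stood at 0.582 ± 0.687 CPM in the somatopleure and 1.5 ± 0.237 in the splanchnopleure (adjusted p = 0.22). The species difference between layers was 1.27 (SE 0.92, adjusted p = 0.464).

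GC, the vitamin D binding protein of blood plasma, was highest in the splanchnopleure of both birds. In the chick its level was 0.363, 3.41 and 2.0 CPM in lateral plate 30, 31 and 32, was 3.24, 0 and 0.369 in somatopleure 15, 60 and 63, and 12.0, 12.9 and 14.4 in splanchnopleure 50, 61 and 64. Emu levels were 0.228, 5.05 and 0.857 CPM in lateral plate 1, 23 and 8, then 1.13, 0.273 and 0.657 in somatopleure 13, 53 and 5, and 49.9 and 27.4 in splanchnopleure 6 and pool. No splanchnopleure library overlapped with any other of its species. In the emu this held for 28.2% of all genes against the lateral plate and for 21.8% against the somatopleure. GC fell by 3.42 in the chick somatopleure against the splanchnopleure (SE 0.87, adjusted p = 0.0186; 0.0577 without somatopleure 63 and 0.0566 without splanchnopleure 64). The same comparison in the emu gave a fall of 5.77 (SE 0.95, adjusted p = 0.00771; 0.0543 without splanchnopleure 6). The species difference was 2.33 (SE 1.45, adjusted p = 0.387), against a fitted 8.68 for CYP24A1.

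CUBN, an endocytic receptor that takes up GC with its cargo in the kidney, was called in 1 of 6 comparisons within species. It was at 1.83, 1.23 and 1.59 CPM in emu lateral plate 1, 23 and 8, at 6.02, 6.69 and 13.1 in somatopleure 13, 53 and 5, and at 12.2 and 13.4 in splanchnopleure 6 and pool. Unlike CYP24A1, it was higher in both emu layers than in the lateral plate. It rose in the splanchnopleure against the lateral plate (log2 fold change 3.04, SE 0.41, adjusted p = 0.0035), and of the 12 calls in that comparison this was the one kept with each library left out. In the somatopleure the log2 fold change was 2.46 (SE 0.39, adjusted p = 0.185; DESeq2 called it).

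The receptor was at like levels in most libraries. VDR was at 4.23, 6.52 and 1.60 CPM in chick lateral plate 30, 31 and 32, at 15.1, 3.82 and 4.43 in somatopleure 15, 60 and 63, and at 3.75, 4.13 and 3.43 in splanchnopleure 50, 61 and 64. Emu levels were 3.20, 4.43 and 2.82 CPM in lateral plate 1, 23 and 8, then 4.39, 2.73 and 5.52 in somatopleure 13, 53 and 5, and 2.45 and 4.27 in splanchnopleure 6 and pool. The groups overlapped in both species, and chick somatopleure 15 was the highest library for VDR and the highest chick library for CYP24A1. VDR was called in 0 of 6 comparisons within species (adjusted p 0.228 to 0.948). Its log2 fold change between the emu layers was 0.33 (SE 0.46), and its species difference between layers was 0.71 (SE 0.80, adjusted p = 0.661).

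The receptor's partners RXRA and RXRG, the retinoid X receptors measured, were also called in 0 of 6 comparisons each (adjusted p 0.0804 to 0.963 and 0.109 to 0.845). RXRA stood at 24.0 ± 2.31 CPM (SD, n = 2) in the emu splanchnopleure, at 14.0 ± 3.67 (n = 3) in the somatopleure and at 13.5 ± 3.72 (n = 3) in the lateral plate. PDIA3, a protein-folding enzyme also described as a membrane binding site for the hormone, rose in the emu splanchnopleure against the lateral plate (log2 fold change 0.52, SE 0.13, adjusted p = 0.0232; 0.0832 without lateral plate 1, 0.0701 without lateral plate 23 and 0.171 without splanchnopleure 6). Of the 10 coregulators measured, BAZ1B rose and the coactivators NCOA2 and NCOA3 fell between the chick layers, and 0 were called between the emu layers (1 at an unadjusted p under 0.05), beside 19.1% and 13.4% of all genes. NCOA2 lost its call without chick somatopleure 60 (0.0534) or splanchnopleure 50 (0.0528), and NCOA3 without somatopleure 15 (0.0575), splanchnopleure 61 (0.0807) or splanchnopleure 64 (0.0939).

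The electron carriers that a mitochondrial P450 enzyme such as CYP24A1 needs were near level across tissues. Ferredoxin, FDX1, was at 25.1 ± 1.76, 25.4 ± 2.76 and 26.7 ± 1.57 CPM in the emu lateral plate, somatopleure and splanchnopleure (SD, n = 3, 3 and 2). Its log2 fold change between the emu layers was -0.07 (SE 0.17), beside a fitted -7.24 for CYP24A1. In the chick FDX1 fell by 0.43 in the splanchnopleure against the lateral plate (SE 0.13, adjusted p = 0.0424), a call lost with any 1 of those 6 libraries left out (0.0649 to 0.131). Ferredoxin reductase, FDXR, was called in 0 of 6 comparisons (adjusted p 0.174 to 0.84), and so was POR, the reductase of microsomal P450 enzymes (0.247 to 0.999).

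Among genes known to respond to the hormone in other tissues, 3 of 10 tested fell in the chick somatopleure against the splanchnopleure and none rose. In the emu 3 of 13 fell and 1 rose. These shares, 30% and 30.8%, stand beside 19.1% and 13.4% of all genes called, on lists of 10 and 13 genes. TRPV6, an epithelial calcium channel, had the order of CYP24A1 in its emu tissue means, as did ITGB3. TRPV6 was at 47.2, 48.7 and 41.7 CPM in emu lateral plate 1, 23 and 8, at 14.7, 15.8 and 12.5 in somatopleure 13, 53 and 5, and at 48.1 and 86.4 in splanchnopleure 6 and pool. The somatopleure libraries lay below all others, and splanchnopleure 6 fell inside the lateral plate range. TRPV6 fell by 2.23 in the somatopleure against the splanchnopleure (SE 0.24, adjusted p = 0.00229), kept with each library left out. In the chick it was between 0.355 and 1.63 CPM in all libraries, under the count filter, so its species difference was not tested.

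ITGB3, the integrin beta chain whose gene responds to vitamin D in avian osteoclast precursors, fell by 2.70 in the emu somatopleure against the splanchnopleure (SE 0.36, adjusted p = 0.00432), kept with each library left out. The emu splanchnopleure libraries stood at 125 CPM (library 6) and 47.3 CPM (pool). Both lay above all lateral plate libraries (19.4, 20.3 and 27.1) and somatopleure libraries (15.7, 12.1 and 11.8). Of all emu genes, 28.2% lay so against the lateral plate and 21.8% against the somatopleure. In the chick the lateral plate was highest, at 45.1, 39.1 and 34.8 CPM, with somatopleure libraries at 17.5, 12.7 and 7.14 and splanchnopleure libraries at 20.6, 19.9 and 34.9. ITGB3 fell by 1.68 in the chick somatopleure compared with the lateral plate (SE 0.31, adjusted p = 0.0058) and by 1.02 against the splanchnopleure (SE 0.31, adjusted p = 0.0405). The latter call was lost without somatopleure 60 (0.0955), somatopleure 63 (0.0996) or splanchnopleure 64 (0.191). The species difference from lateral plate to splanchnopleure was -2.60 (SE 0.51, adjusted p = 0.00702; 0.0666 without emu splanchnopleure 6), of the same sign as the fitted -3.76 of CYP24A1.

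SPP1, the secreted bone matrix protein osteopontin, fell by 2.57 in the chick somatopleure against the splanchnopleure (SE 0.48, adjusted p = 0.00345). It was at 15.2, 4.20 and 6.40 CPM in somatopleure 15, 60 and 63 and at 46.5, 50.3 and 57.1 in splanchnopleure 50, 61 and 64. The emu value was 48.0 CPM in the pool library and 2.58 in splanchnopleure 6, with 0.753, 2.18 and 0.394 in somatopleure 13, 53 and 5. Its emu fall of 4.50 (SE 1.12, adjusted p = 0.0333) rested on the pool library, without which the adjusted p was 0.468, and was lost without any of the somatopleure libraries (0.0544 to 0.0981). CYP24A1, by contrast, differed by 1.14-fold between splanchnopleure 6 and pool.

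RUNX2, a transcription factor of bone-forming cells, had no count in the chick somatopleure. Against a floor of 3 counts per library it was at least 3.77-fold lower there than in the lateral plate (adjusted p = 0.00579) and at least 3.02-fold lower than in the splanchnopleure (adjusted p = 0.00524). It was at 1.81, 1.63 and 0.801 CPM in lateral plate 30, 31 and 32 and at 0.751, 1.22 and 1.42 in splanchnopleure 50, 61 and 64. The phosphate transporter SLC34A2 fell by 2.77 in the chick somatopleure compared with the lateral plate (SE 0.56, adjusted p = 0.00964; 0.0547 without lateral plate 30).

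The list around FGF23 and parathyroid hormone, which control CYP24A1 in the adult kidney, holds their receptors and related hormones and regulators such as STC1 and GALNT3. Of its genes 1 of 7 fell between the chick layers (14.3%, against 19.1% of all genes called) and 1 of 9 between the emu layers (11.1%, against 13.4%). PTH1R, the receptor of parathyroid hormone, was at 1.62, 2.29 and 1.35 CPM in chick somatopleure 15, 60 and 63, at 5.86, 6.27 and 6.38 in splanchnopleure 50, 61 and 64, and at 9.80, 5.19 and 5.0 in lateral plate 30, 31 and 32. The somatopleure libraries lay below all others. PTH1R fell by 1.81 against the splanchnopleure (SE 0.36, adjusted p = 0.00577) and by 1.93 against the lateral plate (SE 0.36, adjusted p = 0.00662). In the emu the log2 fold change between layers was -1.14 (SE 0.36, adjusted p = 0.0687).

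KL, the co-receptor of FGF23, stood at 8.76 and 3.23 CPM in emu splanchnopleure 6 and pool and between 0.526 and 1.72 CPM in the other 6 emu libraries. It fell by 2.75 in the somatopleure against the splanchnopleure (SE 0.61, adjusted p = 0.0227; 0.0694 without somatopleure 13 and 0.237 without splanchnopleure 6). FGFR1, the FGF receptor that works with KL, was called in 0 of 6 comparisons (adjusted p 0.196 to 0.96). FGF23 was at 2.17 to 6.57 CPM in the emu and was not called there (adjusted p 0.797 to 0.945).

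Other P450 genes were read for their levels in the same layers. Of 5 tested in the emu outside the vitamin D lists and the mitochondrial enzymes, 3 fell in the somatopleure against the splanchnopleure, and of 9 tested in the chick 3 fell (60% and 33.3%, against 13.4% and 19.1% of all genes called). CYP26B1, which breaks down retinoic acid, fell by 3.14 in the chick (76.0 ± 24.3 to 8.61 ± 1.19 CPM, SD, n = 3 each; SE 0.34, adjusted p = 0.000138). Its fall in the emu was 1.61 (68.6 ± 9.04, n = 2, to 22.4 ± 3.74, n = 3; SE 0.36, adjusted p = 0.0225; 0.0595 without somatopleure 13 and 0.155 without splanchnopleure 6). CYP26B1 was thus highest in the inner layer of both birds, which CYP24A1 was only in the emu.

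CYP7B1, an oxysterol hydroxylase, was at 297 and 300 CPM in emu splanchnopleure 6 and pool and between 156 and 173 CPM in the other 6 emu libraries. It fell by 0.86 in the emu somatopleure against the splanchnopleure (SE 0.10, adjusted p = 0.00268), while the chick log2 fold change was 0.21 (SE 0.26, adjusted p = 0.615). The species difference between layers was 1.06 (SE 0.20, adjusted p = 0.00728) and was kept with each library left out. It had the sign of the CYP24A1 difference at a smaller size. TBXAS1, the thromboxane synthase, had a species difference of 2.04 (SE 0.54, adjusted p = 0.0397) between layers, lost without any of 9 of the 11 layer libraries (adjusted p up to 0.102), the exceptions being chick somatopleure 15 and emu somatopleure 5. CYP27C1, a mitochondrial P450 that acts on vitamin A in zebrafish, was not called between the layers of either species (adjusted p 0.11 in the chick and 0.211 in the emu).

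The genes next to CYP24A1 on the chromosome gave a comparison by position. Of the 5 RefSeq genes on each side in the chicken gene order, 3 of 10 are in the tables, all named genes; the order comes from assembly GRCg7b, which differs from the one named by the submitters, and is used for neighbours only. BCAS1, 3 places away, was at 1.37, 2.93 and 1.60 CPM in chick somatopleure 15, 60 and 63 and at 8.41, 12.2 and 13.4 in splanchnopleure 50, 61 and 64. Emu values were 1.13, 0.682 and 2.23 in somatopleure 13, 53 and 5 and 7.47 and 16.0 in splanchnopleure 6 and pool. It was lower in the somatopleure of both birds. It fell by 2.52 in the chick (SE 0.39, adjusted p = 0.00123) and by 3.11 in the emu (SE 0.64, adjusted p = 0.0178; 0.0568 without somatopleure 13 and 0.0785 without pool), and the species difference was 0.57 (SE 0.75, adjusted p = 0.712).

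DOK5, an adaptor of receptor tyrosine kinases 5 places away on the other side, rose in the chick somatopleure against the splanchnopleure (45.7 ± 1.57 against 26.6 ± 4.05 CPM, SD, n = 3 each; log2 fold change 0.78, SE 0.16, adjusted p = 0.00538), in the direction of CYP24A1. In the emu it was at 5.15, 1.64 and 22.3 CPM in somatopleure 13, 53 and 5 and at 1.55 and 0.905 in splanchnopleure 6 and pool, with no call (adjusted p = 0.0866); the species difference was -2.20 (SE 0.93, adjusted p = 0.184). PFDN4, a chaperone subunit, was at 61.2 to 65.2 CPM in the chick somatopleure, 59.3 to 65.0 in the lateral plate and 37.9 to 54.2 in the splanchnopleure. It rose in the chick somatopleure against the splanchnopleure (log2 fold change 0.46, SE 0.13, adjusted p = 0.0322), also in the direction of CYP24A1, a call lost without any of 5 of those 6 libraries (0.0539 to 0.0997). It fell by 0.42 in the splanchnopleure against the lateral plate (SE 0.13, adjusted p = 0.0484), likewise lost without any of 5 libraries (0.0925 to 0.152). PFDN4 was at no more than 0.861 CPM in the emu, where it did not pass the filter.

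The genes whose levels ran most like CYP24A1 were ranked by the mean of the Pearson correlations of log2 CPM over the 9 chick and over the 8 emu libraries, among 9109 genes with a mean log2 CPM of at least 1 in both species. The points share libraries, tissues and depth, so the values are descriptions. ZFAND2A, a zinc finger protein linked to the proteasome under stress, came first (mean 0.88; chick 0.92, emu 0.85). FAM59A, an adaptor of growth factor receptor signalling, was next (mean 0.88; chick 0.90, emu 0.86), then PTP4A3, a phosphatase (0.84), and CGRRF1, a ring finger protein (0.83). MGAT3, LOC100858734, NT5C3 and FZD3 were also among the first 10, at 0.81 to 0.76. Between the layers these genes had the signs of CYP24A1 in both species, which a ranking by likeness favours. Their largest fitted log2 fold changes were 0.99 in the chick (FZD3) and -1.83 in the emu (MGAT3). For CYP24A1 these were 1.44 and -7.24. Not all had its full order. MGAT3 was not higher in the chick somatopleure than in the lateral plate (-0.08), and NT5C3 was not lower in the emu somatopleure (0.04).

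ZFAND2A, for example, stood at 20.1 ± 3.37 CPM in the chick somatopleure and 12.2 ± 2.71 in the splanchnopleure (SD, n = 3 each). In the emu it was at 5.26 ± 0.685 (n = 3) and 7.55 ± 1.02 (n = 2). The gene most opposite to CYP24A1 was NBEA, a protein of vesicle traffic (mean -0.88), at 80.6 ± 13.9 CPM in the chick splanchnopleure against 38.2 ± 10.7 in the somatopleure, and at 5.88 ± 1.75 against 14.5 ± 2.85 in the emu. MTR, methionine synthase, FAM84A, FBLIM1 and TMC5 followed, at -0.83 to -0.81. Of the 10 most alike genes, 6 to 10 stayed on the list with any 1 library left out, and 7 with Spearman correlations. Among the vitamin D and P450 genes that met the same level, RXRA was most alike (mean 0.50, chick 0.33, emu 0.67). FDX1 was next (0.48, chick 0.70, emu 0.25). At the other end of this list, FDXR was most opposite (mean -0.68, chick -0.62, emu -0.73), followed by NCOA3 (mean -0.54).

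**Figure D4:**
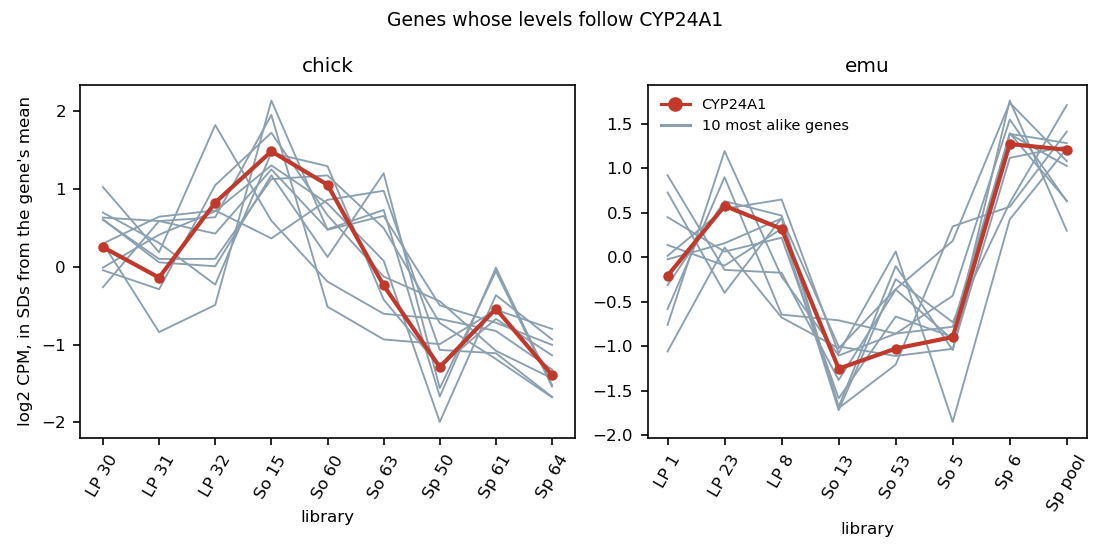
Log2 CPM of CYP24A1 (red) and of the 10 genes most like it (grey) in each library, as SDs from the gene's own mean in that species (LP lateral plate, So somatopleure, Sp splanchnopleure). In both panels the lines drop in one layer and rise in the other, with the low layer being the splanchnopleure in the chick and the somatopleure in the emu; the SD scale hides that the other genes differ less in size.

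Markers of other cell types differed between the same layers. The summed level of 5 endoderm markers of 10 listed was 81.4 to 86.9 CPM in the emu splanchnopleure, 29.2 to 48.5 in the lateral plate and 10.6 to 32.2 in the somatopleure, so it had the order of CYP24A1 in the emu. In the chick it was 52.5 to 69.0 CPM in the splanchnopleure, 58.6 to 68.9 in the lateral plate and 6.11 to 11.9 in the somatopleure, where IHH was at 0. That is not the chick order of CYP24A1, which was lowest in the splanchnopleure. The sum of 8 endothelial and blood markers of 12 listed was 847 to 1806 CPM in the emu splanchnopleure. It was 419 to 532 CPM in the emu lateral plate and 187 to 457 in the somatopleure, which overlapped. The emu splanchnopleure was thus highest for this sum too. In the chick the sum was 866 to 1284 CPM in the splanchnopleure, 750 to 968 in the lateral plate and 195 to 330 in the somatopleure.

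The summed nephric and splanchnic mesoderm markers also did not overlap between layers, except the nephric sums of the chick. The sum of 3 nephric markers of 7 listed, genes of the early kidney where CYP24A1 acts in adults, was 12.4 to 14.9 CPM in the emu splanchnopleure, lower than in its somatopleure (20.8 to 101) and lateral plate (74.8 to 152). In the chick it was 3.003 to 29.99 CPM in the splanchnopleure, 25.2 to 69.2 in the somatopleure and 79.7 to 118 in the lateral plate. The sum of 8 splanchnic mesoderm markers of 11 listed was 585 to 755 CPM in the emu splanchnopleure. It was 281 to 486 CPM in the emu somatopleure and 88.3 to 276 in the lateral plate. The emu lateral plate was thus lowest for this sum, whereas the somatopleure was lowest for CYP24A1. In the chick the ranges were 366 to 586, 147 to 185 and 88.3 to 235 CPM in the same order. NKX2-5 was at 0 in the chick somatopleure. The sum of 4 lateral plate markers of 6 listed was 833 to 855 CPM in the emu splanchnopleure. It was 474 to 760 CPM in the emu somatopleure and 239 to 499 in the lateral plate, which overlapped. In the chick the ranges were 534 to 717, 305 to 378 and 265 to 538 CPM in the same order.

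Surface ectoderm markers, of the epithelium over the outer layer, were on the other side in the emu. In the emu somatopleure against the splanchnopleure 4 of 5 tested rose (median log2 fold change 3.25), against 5.05% of all genes called higher. In the splanchnopleure against the lateral plate 4 of 5 fell, where 20.6% of all genes were called in either direction. The sum of these 5 markers was 220 to 236 CPM in the emu splanchnopleure, 307 to 500 in its somatopleure and 360 to 484 in its lateral plate. In the chick 0 of 5 were called between the layers, against 19.1% of all genes (3 at an unadjusted p under 0.05, lowest adjusted p 0.0894). The chick sums overlapped, at 212 to 342 CPM in the somatopleure and 145 to 340 in the splanchnopleure. Of the somite markers 2 of 6 fell between the chick layers, against 11.8% of all genes called lower. Between the emu layers 0 of 6 were called (2 at an unadjusted p under 0.05), against 13.4% of all genes. Neural markers summed to no more than 2.76 CPM in any library. The part of these cell types in the CYP24A1 difference was not tested.

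**Figure D5:**
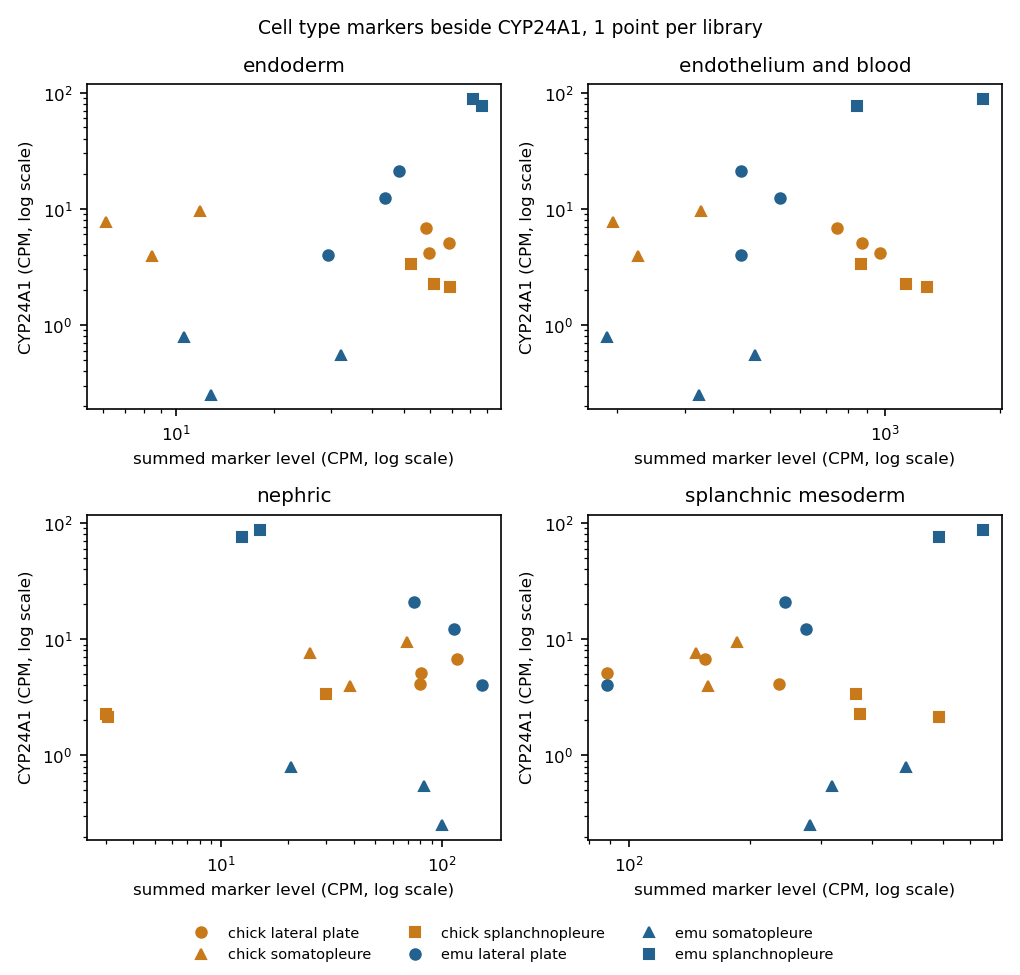
CYP24A1 level (vertical axis) against the summed level of 4 marker lists (horizontal axis), both in CPM on log scales, 1 point per library. In the emu the splanchnopleure (blue squares) is at the top for CYP24A1 and at the right for endoderm, at 81.4 to 86.9 CPM, while chick libraries with endoderm sums of 52.5 to 69.0 CPM stay at 2.13 to 6.81 CPM of CYP24A1.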

How the data were processed

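Early libraries of chick and emu tissue were made from total RNA isolated on PicoPure columns, from 50 ng of RNA with 15 cycles of amplification, per the labels' protocols. The deposited values are raw read counts per gene, 1 table per species with the same gene symbols. The chicken assembly galGal4 and the tools DESeq, featureCounts and STAR, without versions, are listed in the submitters' processing notes. The genome used for the emu reads, the use of strand and the handling of reads shared between overlapping genes or near copies are not given in the sources used here, and such genes are uncertain. The tables of HH18 limb buds name genes by numbered identifiers and were not used here.

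CYP24A1 and the gene lists were chosen with earlier results of these data known. Groups followed the tissue in the labels. Each table was fitted whole in R 4.3.3 with edgeR 4.0.16, by its two-sided quasi-likelihood F test, after TMM scaling and a low-count filter (filterByExpr, count of 10, total of 15). P-values were adjusted by Benjamini-Hochberg over the whole table, with a threshold of 0.05; 10071 chick and 10640 emu genes were tested. All 3 tissues of a species share an estimate of the spread. Species differences (chick log2 fold change minus emu log2 fold change) were tested as an interaction in 1 fit of 6 groups over 9736 genes. All adjusted p-values are edgeR's unless DESeq2 1.42.0 is named. Scripts were tested on simulated counts. CPM are counts over the TMM-scaled library size, and log2 CPM has a prior count of 2. Intervals of CYP24A1 are exact 95% Poisson intervals; a gene with no count in a tissue is set against a floor of 3 counts per library. Both cover counting error only. Named genes were CYP24A1, the listed vitamin D and P450 genes (values for those called or best measured), its 5 neighbours on each side, the 10 genes most like it and the 5 most opposite, and the listed markers. Alternatives were DESeq2, RLE scaling, no filter on low counts, a prior count of 0.5, Spearman correlation, each library left out in turn, and both emu libraries with a stage label unlike their tissue left out; leaving out each library for the likeness list was added after seeing the data. Of the 10 genes most like CYP24A1, 2 are not reported here.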

Additional observations from a re-analysis of the deposited data

Results flagged for a closer look

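CYP24A1 differed between the species in the direction between layers, by 8.07 on the log2 scale (chick minus emu), with every chick somatopleure library above every chick splanchnopleure library and every emu somatopleure library below both emu splanchnopleure libraries. The difference was not tested, since it chose the gene. The counting intervals of the closest chick libraries, somatopleure 63 (2.69 to 5.56 CPM) and splanchnopleure 61 (2.11 to 5.10), overlapped.

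Among the listed genes, edgeR's interaction test over both species (adjusted over 9736 genes) also gave differences between species. From lateral plate to splanchnopleure these were -2.05 for TBXAS1 (adjusted p = 0.0223), 2.75 for CYP26A1 (0.00936), 2.49 for CYP27A1 (0.0168), -0.486 for PDIA3 (0.0311) and -2.60 for ITGB3 (0.00702). Each of these 5 lost its call without emu splanchnopleure 6 (adjusted p 0.0545, 0.057, 0.0694, 0.175 and 0.0666), TBXAS1 also without chick lateral plate 32, chick splanchnopleure 50, emu lateral plate 1 or the emu pool library, and PDIA3 without any of 7 further libraries (0.0516 to 0.0778). CYP26A1, a retinoic acid hydroxylase, was at 38.1 ± 9.82 CPM in the chick splanchnopleure against 3.02 ± 0.858 in the lateral plate (SD, n = 3 each), and at 25.5 and 58.3 CPM in the emu splanchnopleure libraries against 22.4 ± 3.34 in the lateral plate (n = 3). Between layers the differences were 2.04 for TBXAS1 (0.0397), 1.06 for CYP7B1 (0.00728) and -0.642 for NCOA3 (0.0483); the call of CYP7B1 was kept with each library left out. The layer comparisons and those with the lateral plate share libraries.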

How the results depend on the processing

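No called result turned its direction under the alternatives run. Of 660 values of called genes under alternatives, 470 kept their call and 190 lost it; of 4498 values of listed genes not called, 56 gained a call. DESeq2 called 140 genes (3 pathway genes) between emu somatopleure and lateral plate against 0 by edgeR, 585 (2) for the species difference in that change against 288 (0), and 842 (3) for the species difference between layers against 532 (1). That last pathway count was 0 with RLE scaling and 2 with no filter on low counts. Without emu lateral plate 1 and somatopleure 13, which leaves fewer samples, 654 genes (3 pathway genes) were called between emu splanchnopleure and lateral plate, 453 (4) between the emu layers, and 97 and 575 for the species differences of somatopleure and splanchnopleure against lateral plate, with 0 pathway genes for that between layers. The CYP24A1 species difference from lateral plate to splanchnopleure was then -3.31. With a prior count of 0.5, CYP24A1 differed by -7.23 between the emu layers and by 8.59 between species. 

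With 1 library left out, in the chick 581 to 1055 genes (4 to 5 pathway genes) were called for somatopleure against lateral plate, 816 to 1481 (0 to 1) for splanchnopleure against lateral plate and 1192 to 2164 (6 to 10) between layers. In the emu, in the same order, the counts were 0 to 1 (0 to 0), 353 to 1607 (3 to 8) and 263 to 1578 (4 to 10), and for the species differences 146 to 349 (0 to 1), 241 to 991 (0 to 4) and 213 to 719 (0 to 2). CYP24A1 differences ran from 0.07 to 0.67, -1.17 to -0.80 and 1.05 to 1.65 in the chick, -4.44 to -3.28, 2.33 to 3.49 and -7.02 to -6.49 in the emu, and 3.60 to 4.75, -4.47 to -3.31 and 7.78 to 8.42 between species. Leaving out an emu splanchnopleure library leaves 1, which the fit assumes to vary like the other groups. Why counts moved was not tested. The emu somatopleure holds 12 CYP24A1 counts in all, so its level is known only within its wide counting intervals. No paired analysis was possible because the early tissues share no library numbers.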
